A study of Mus musculus with 42 samples.

Results

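The genes of the mitochondrial respiratory chain and of ATP synthase were examined in 21 mouse mammary tumours, each measured on a pair of 2-colour arrays. Members were the genes whose symbol in the platform annotation begins with Nduf, Cox4 to Cox8, Uqcr, Sdh followed by a, b, c or d, or Atp5. The rule caught 89 genes on 90 probes, and 76 of them had values on both arrays of at least 15 tumours and were tested among 7629 genes in all. Of the 76, 65 encode subunits (or carry the symbol of a subunit's pseudogene), 10 carry the symbols of assembly factors, and Cox7a2l is a factor that helps join complexes into supercomplexes. The tumours go back to mammary neoplasms of FVB/N-Tg(WapMyc)212Bri mice, which carry c-Myc as a transgene under the milk protein promoter Wap, a promoter active in secretory epithelium. All 21 tumours share this origin, and no normal mammary gland was analysed here. The labels describe 4 lines obtained by selection in living mice, which grew in a glandular pattern, in a solid or comedo pattern without lung metastases, in that pattern with lung metastases, or as spindloid (mesenchymal) sheets. They give a number for each tumour but neither its line nor the age of its host, so the comparison is between numbered tumours.

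The respiratory chain passes electrons from NADH (complex I) and succinate (complex II) through complex III to oxygen at complex IV, and the proton gradient built on the way drives ATP synthase, also called complex V. Most subunits are encoded in the nucleus, and their genes lie scattered over the chromosomes. In many tissues their mRNAs are known to rise and fall together, and Myc is among the factors known to bind genes of mitochondrial proteins.

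Every value is a log2 ratio of a tumour to a common reference RNA pool (Universal Mouse Reference), as deposited, after arrays of opposed dye orientation had been turned the same way. Which side is tumour and which is reference is not settled by the labels. The side was chosen to make the values of Myc positive, so all signs below could be turned as a whole. The 2 arrays of a tumour are repeated hybridisations of 1 RNA, and p-values of limma's moderated F test therefore measure hybridisation error, not the spread between animals. The main fit has no dye term, so this error also holds any dye difference between the 2 arrays. The same is true of the SD within tumours and the intraclass correlation given below. Arrays gave between 8809 and 21471 measured probes, and their medians over all probes lay between -1.425 and 1.242 after turning. The raw correlation of a tumour's arrays, which should be negative in a dye swap, lay between -0.565 and 0.074 and was above -0.1 for tumours 639, 646, 647, 656 and 660. Values of these 5 tumours carry more error, and in tumour 656 (0.074) the arrays did not agree over probes. In bulk tissue, fewer cells of a type and less RNA per cell cannot be told apart.

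In the moderated F test 17 of the 76 members (22.4%) differed between tumours at an adjusted p below 0.05, beside 18.9% of all genes, a share near that background. They were Ndufb9, Ndufa6, Ndufb3, Ndufb2, Ndufc2, Ndufa2, Ndufa4 and Ndufb8 of complex I, Uqcrfs1, Uqcr10 and Uqcrc2 of complex III, Cox6c and Cox6a2 of complex IV, and Atp5a1, Atp5g2, Atp5pb and Atp5e of complex V. No member of complex II and none of the 10 assembly factors passed, although 1 and 2 of them had an unadjusted p below 0.05. The count moved widely with the handling of the arrays. With each array centred on its own median 6 members passed (7.89%), beside 19.3% of all genes, and 4 of the 17 were among these 6 (Ndufb9, Uqcr10, Uqcrc2 and Cox6a2). With dye orientation as a covariate 51 passed (67.1%), beside 45.1% of all genes, and all 17 were among them. The difference between the 2 dye orientations had the same sign in 68 of 76 members, beside 7092 of all 7629 genes. Its median was 0.49 on the log2 scale for members, beside 0.71 for all genes.

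**Figure D1:**
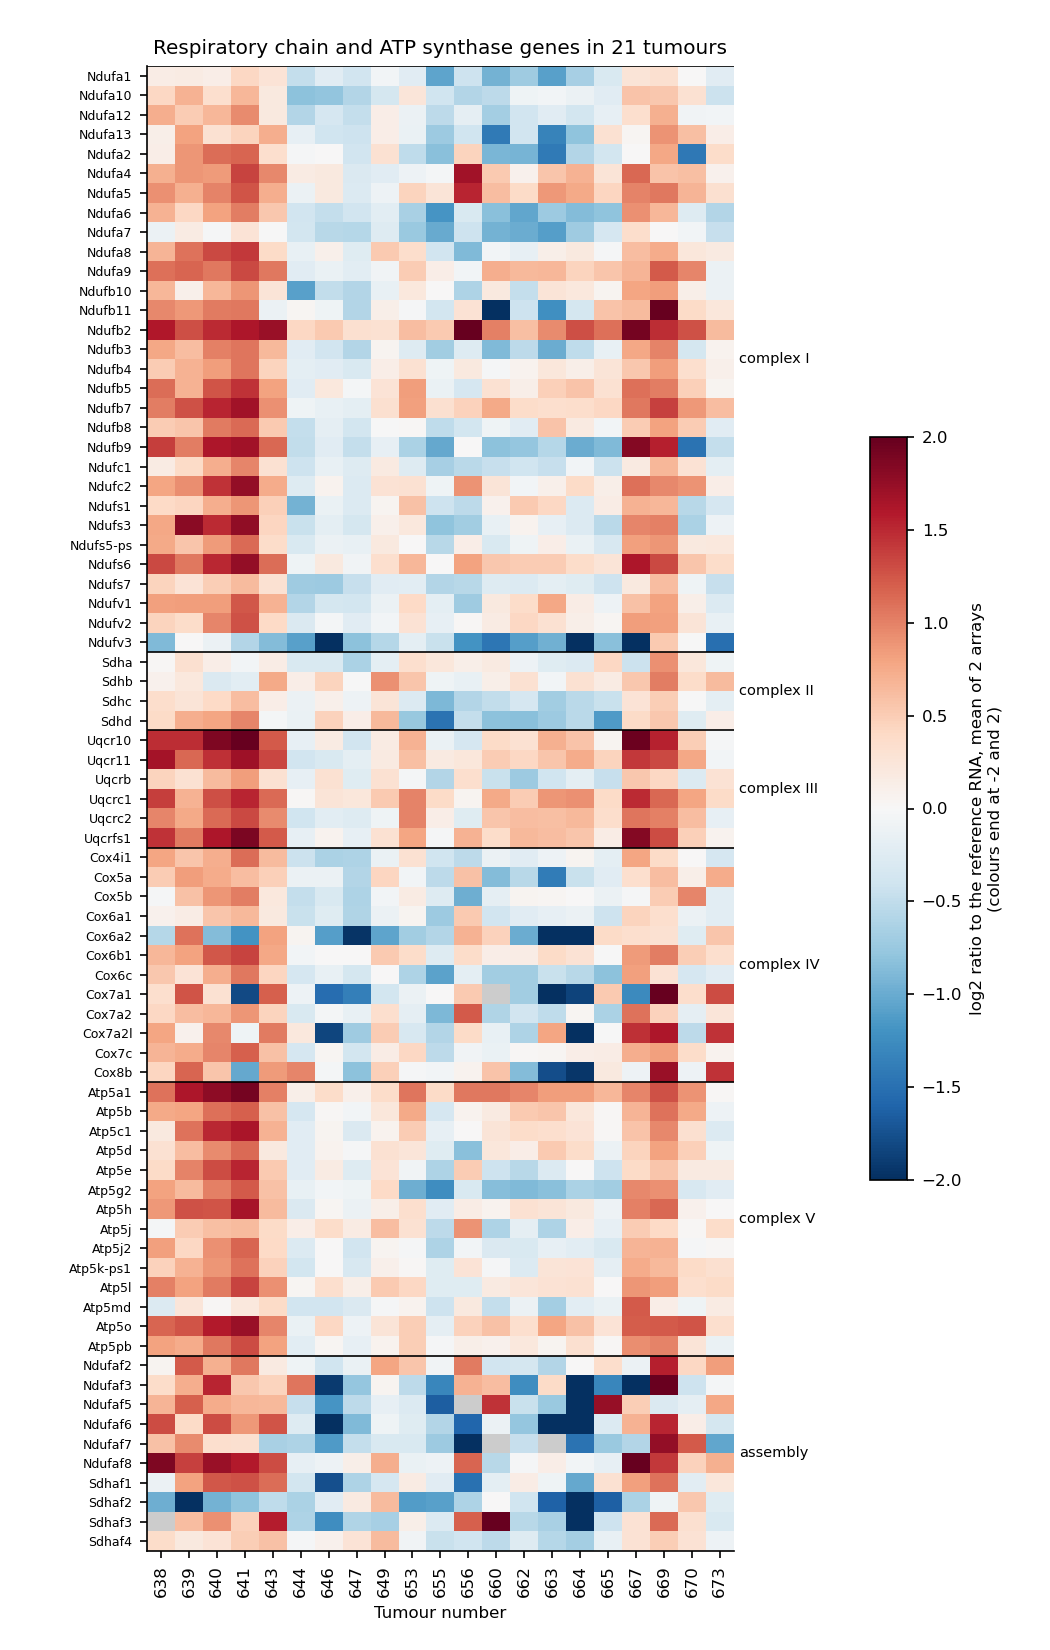
Log2 ratio to the reference RNA (colour, mean of 2 arrays) of the 76 members in rows, grouped by complex, in the 21 tumours in columns; grey cells have no value. Columns 638 to 643, 667 and 669 are red for most subunits of complexes I, III, IV and V, and the rows of Ndufb9, Ndufa6, Cox6c and Atp5g2 are blue from 653 to 665, except near 0 or pale in 656.

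Differences between tumours were small for most members. The median range from lowest to highest tumour was 1.94 on the log2 scale for members and 3.08 for all genes, and the median standard deviation (SD) of the 2 arrays within a tumour was 0.51 against 0.91. The intraclass correlation, the share of a gene's variance that repeats between the 2 arrays of a tumour, had a median of 0.36 for members and 0.21 for all genes. The SD of tumour means exceeded the SD within tumours for 41 of 76 members. The medians of these SDs were 0.54 and 0.51 for members and 0.81 and 0.91 for all genes. Over all pairs of tumours, 359 of 15861 member contrasts (2.26%) had an adjusted p below 0.05 and a log2 difference of at least 1, beside 2.75% of contrasts of all genes. The 17 members that passed the F test gave 287 of these 359 contrasts. Both calls come from the same fit and the like share for all genes is not given here, so this shows nothing particular to the members.

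**Figure D2:**
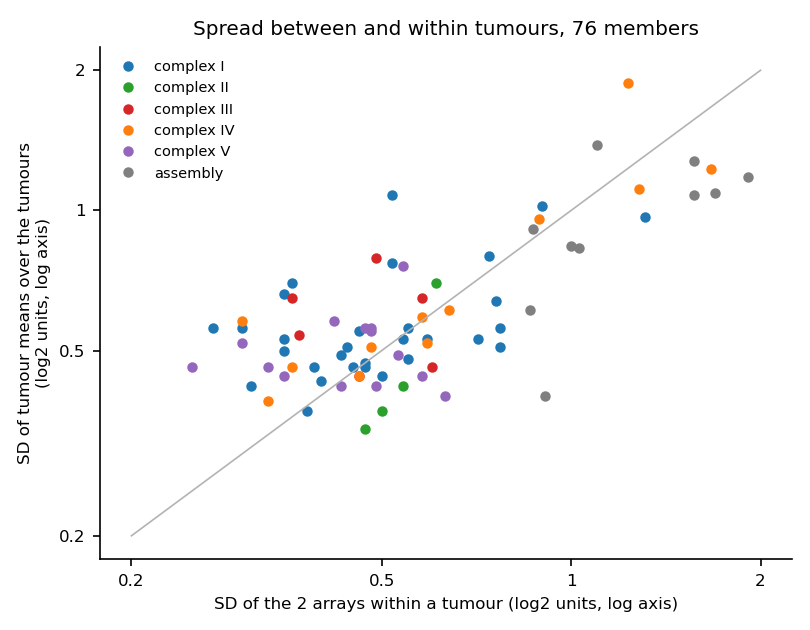
SD of tumour means over the tumours (vertical) against SD of the 2 arrays within a tumour (horizontal), both in log2 units on log axes, 1 point per member and 1 colour per complex; the grey line marks equal values. Points of 41 members lie above the line, and the assembly factors lie to the right, with SDs within tumours of 0.86 to 1.91.

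The promoters of 3 members are shown because these genes are described below and differ in what their start regions hold. Each line gives the 250 bases before the RefSeq start of the gene (GRCm38.p6), written 5′ to 3′ on the gene's own strand, which is the minus strand for all 3. Capitals mark GCGCATGC or its other strand GCATGCGC, letters of the NRF1 motif. NRF1 is a transcription factor known for binding genes of the respiratory chain.

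Ndufa6: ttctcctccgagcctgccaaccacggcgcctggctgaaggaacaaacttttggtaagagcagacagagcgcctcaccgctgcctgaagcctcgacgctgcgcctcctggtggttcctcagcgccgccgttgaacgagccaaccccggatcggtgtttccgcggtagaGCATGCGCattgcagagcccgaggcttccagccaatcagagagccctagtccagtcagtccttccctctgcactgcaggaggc

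Atp5g2: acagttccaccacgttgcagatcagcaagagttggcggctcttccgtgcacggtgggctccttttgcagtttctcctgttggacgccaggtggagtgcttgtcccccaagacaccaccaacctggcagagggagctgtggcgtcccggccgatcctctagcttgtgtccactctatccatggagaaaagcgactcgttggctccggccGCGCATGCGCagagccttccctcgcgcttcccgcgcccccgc

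Uqcr10: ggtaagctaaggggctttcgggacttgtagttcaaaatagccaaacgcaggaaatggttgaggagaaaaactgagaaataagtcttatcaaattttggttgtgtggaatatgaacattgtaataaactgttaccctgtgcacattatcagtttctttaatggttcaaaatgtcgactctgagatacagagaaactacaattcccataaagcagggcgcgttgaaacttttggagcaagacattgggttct

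The window of Ndufa6 is chr15:82354292-82354541 and holds the motif with its first base 83 bases before the start. That of Atp5g2 is chr15:102671048-102671297 and holds overlapping copies on both strands, beginning 42 and 40 bases before the start. The window of Uqcr10, chr11:4704345-4704594, holds neither these letters nor any of the other 3 motifs searched. RefSeq promoters (250 bases before and 50 after the start) were matched for 63 of the 76 members. The NRF1 letters occurred on either strand in 9 of these 63 (14.3%), beside 6.26% of the 6119 tested genes with a promoter and 3.05% of all 27025 genes in the table. The YY1 letters AAGATGGC occurred in 9 members (14.3%, beside 5.82% and 3.19%), and the ETS letters CCGGAAG, bound by GABP, in 16 (25.4%, beside 21% and 9.93%). The E-box CACGTG, the letters bound by Myc, occurred in 4 members (6.35%, beside 12.1% and 8.09%): Atp5l, Atp5pb, Ndufa7 and Ndufv1. Of the 9 members with the NRF1 letters, Ndufa6 and Atp5g2 passed the F test. A match of letters is a description of the sequence and shows no binding.

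Complex I, the NADH dehydrogenase, was measured with 30 of 33 genes, and 8 passed the test, none of them a core subunit. Ndufb9, an accessory subunit of the membrane arm, had the smallest adjusted p of all members. It ran from -1.47 in tumour 670 over a median of -0.48 to 1.83 in tumour 667 (SE of a tumour mean, SE, 0.39, adjusted p = 1.8e-04), a range of 9.88-fold. Its mean was 1.03 or more in tumours 638, 639, 640, 641, 643, 667 and 669 and at most 0.00 in the other 14. The lowest value rests on arrays of -0.41 and -2.54 that lie far apart, while the arrays of tumour 655 gave -0.99 and -1.07. Ndufb9 also passed with arrays centred (0.00877), with slide run as a block (0.00549) and without tumour 656 (4.8e-05).

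Ndufa6, an accessory subunit near the quinone-binding site, ran from -1.18 in tumour 655 over a median of -0.38 to 1.02 in tumour 641 (SE 0.30, adjusted p = 0.00165). Its means were 0.41 to 1.02 in the same 7 tumours that were high for Ndufb9 and -0.21 or lower elsewhere. With arrays centred its adjusted p was 0.232. Ndufb3 was highest in tumour 641 as well, at 1.07 against a median of -0.22 (0.00267), and Ndufc2 from -0.28 in tumour 647 to 1.75 in tumour 641 (0.00947). Ndufa2 had its highest mean in tumour 641, at 1.16, and its lowest in tumour 670, at -1.43 (0.0108).

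Ndufb2 and Ndufa4 were highest in tumour 656, whose arrays did not agree over all probes. For Ndufb2 the arrays of tumour 656 read 2.48 and 1.90 against a median of 1.10 over tumours, and the lowest mean was 0.30 in tumour 649 (adjusted p = 0.00372, and 0.00722 without tumour 656). For Ndufa4, which is now counted to complex IV, they read 2.02 and 1.34 against a median of 0.56, and the lowest mean was -0.29 in tumour 647 (0.0298, and 0.0719 without tumour 656). The call for Ndufa4 was therefore lost without this tumour. The 5 core subunits tested (Ndufv1, Ndufv2, Ndufs1, Ndufs3 and Ndufs7), of the part that carries the flavin and the iron-sulfur clusters, had adjusted p values above the threshold, but all 5 passed with dye orientation as a covariate, with 8.7e-04 (Ndufs3) to 0.0496 (Ndufs1). Ndufv1, the NADH-binding subunit, ran from -0.71 in tumour 656 to 1.24 in tumour 641 (0.0882), Ndufs1 from -0.94 in tumour 644 to 0.88 in tumour 641 (0.125), and Ndufs3 from -0.81 in tumour 655 to 1.80 in tumour 639 (0.0975, and 0.0499 with arrays centred). Ndufb11 had the largest range of the complex, from -2.02 in tumour 660 to 3.24 in tumour 669, with an SD within tumours of 0.90 and an adjusted p of 0.0956. Ndufa3, Ndufab1 and Ndufs4 were caught by the rule but had both arrays in only 9, 8 and 14 tumours and were not tested.

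**Figure D3:**
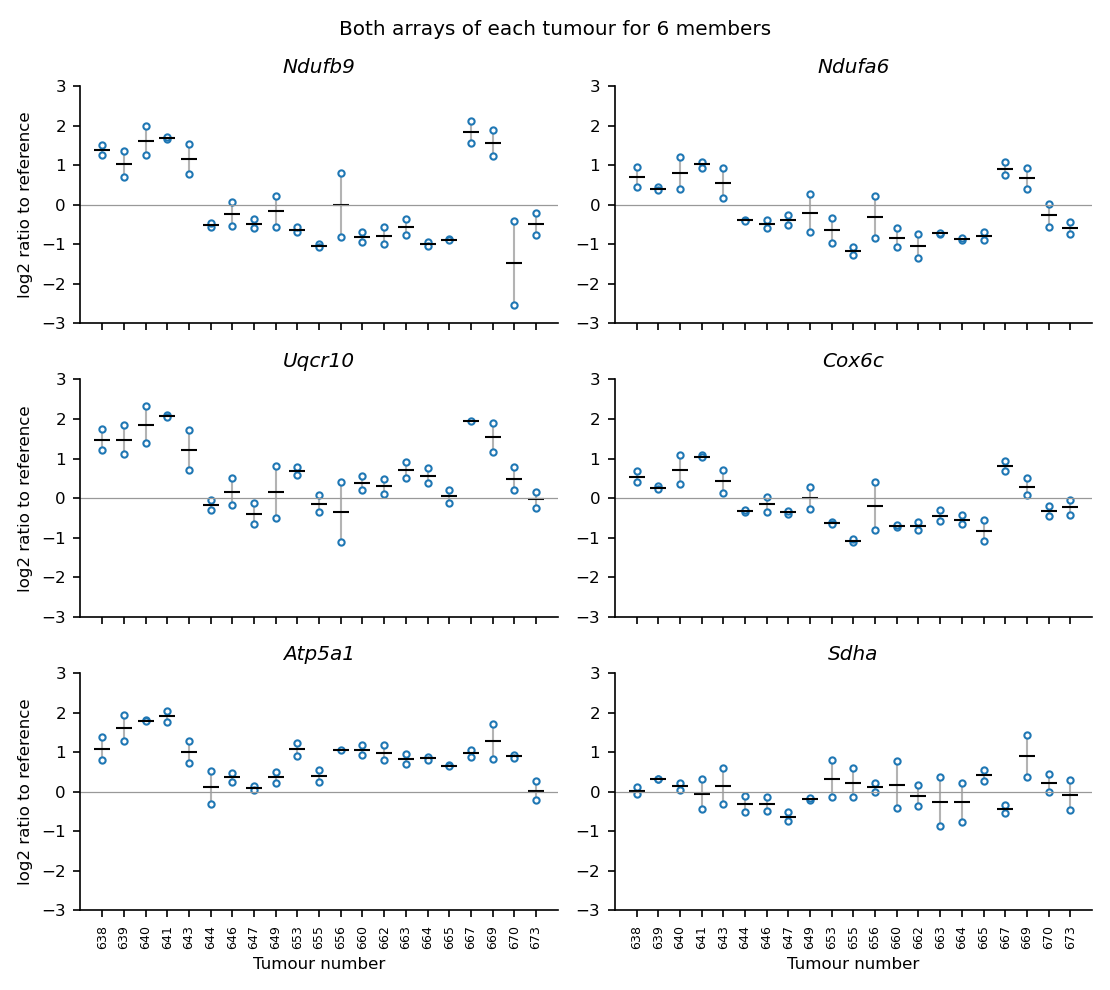
Log2 ratio to the reference RNA of 6 members on both arrays (circles, joined by a line) and their mean (bar) in the 21 tumours; a single circle marks a tumour with 1 measured array, such as 667 for Uqcr10. Ndufb9, Ndufa6 and Cox6c are above 0 on every array of 638 to 643, 667 and 669, and the means of Sdha lie between -0.64 and 0.91 without that pattern.

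Complex II, succinate dehydrogenase, which also serves the tricarboxylic acid cycle, was measured with all 4 subunits and none passed. Sdha, the flavoprotein, had means from -0.64 in tumour 647 to 0.91 in tumour 669 (median 0.03, adjusted p = 0.744). Sdhb, the iron-sulfur subunit, ran from -0.29 in tumour 640 to 1.03 in tumour 669 (0.717). For both, the SD of tumour means (0.34 and 0.37) was below the SD of the 2 arrays within a tumour (0.47 and 0.50). The membrane anchors Sdhc and Sdhd were lowest in tumour 655 and highest in tumour 641. For Sdhc these means were -0.90 and 0.61 (0.587), and for Sdhd -1.47 and 0.97 (0.0803, and 2.6e-04 with dye orientation as a covariate).

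Complex III, which hands electrons from quinol to cytochrome c, was measured with 6 of 8 genes, and 3 passed. All 6 had their highest mean in tumour 641. Uqcrfs1, the Rieske iron-sulfur protein, ran from -0.17 in tumour 647 over a median of 0.61 to 1.88 in tumour 641 (SE 0.30, adjusted p = 0.00421, and 0.242 with arrays centred). Uqcr10, a small accessory subunit, ran from -0.39 in tumour 647 over a median of 0.49 to 2.08 in tumour 641 (SE 0.37, adjusted p = 0.00757), and its 2 arrays in tumour 641 read 2.11 and 2.05. It also passed with arrays centred (0.0232) and with slide run as a block (0.0475). Uqcrc2, a core protein of the matrix side, ran from -0.40 in tumour 644 to 1.32 in tumour 641 (0.0323, 0.0491 with arrays centred and 0.0985 with slide run as a block). Its partner Uqcrc1, from 0.03 to 1.52 in the same tumours, had an adjusted p of 0.582, and 0.0217 with dye orientation as a covariate. Uqcrh and Uqcrq had both arrays in 5 and 9 tumours and were not tested.

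Complex IV, cytochrome c oxidase, was measured with 12 of 16 genes (Cox7a2l among them), and 2 passed. Cox6c ran from -1.07 in tumour 655 over a median of -0.23 to 1.05 in tumour 641 (SE 0.27, adjusted p = 0.00438, and 0.733 with arrays centred). Its mean lay between 0.27 and 1.05 in tumours 638, 639, 640, 641, 643, 667 and 669 and at 0.00 or lower in the other 14. Cox5a and Cox5b, Cox7c and Cox4i1 did not pass, with adjusted p values of 0.23, 0.192, 0.0913 and 0.36.

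Several complex IV subunits exist as a form found in most tissues and a form typical of muscle, and the forms differed in their spread. Cox6a1, the common form, was lowest at -0.72 (tumour 655) and highest at 0.65 (tumour 641), with an adjusted p of 0.207. Cox6a2, the muscle form, had the largest range of all members, from -7.59 in tumour 663 over a median of -0.57 to 1.08 in tumour 639 (0.0392). The value of tumour 663 comes from 1 array, the other being blank or at the repeated top value, and with top values kept the adjusted p was 0.598. Cox7a2, the common form, ran from -0.90 in tumour 655 to 1.22 in tumour 656 (0.198), and Cox7a1, the muscle form, from -2.28 in tumour 663 to 2.33 in tumour 669 (0.549, over 20 tumours). Cox8b, a muscle form, ran from -1.95 in tumour 664 to 1.73 in tumour 669 (0.0925), and its common partner Cox8a had both arrays in 13 tumours and was not tested. The SD within tumours was 0.33 and 0.58 for the common forms Cox6a1 and Cox7a2 and 1.23, 1.67 and 0.89 for Cox6a2, Cox7a1 and Cox8b. Ratios of small whole numbers, which mark dim probes, made up 4.76% and 2.38% of the values of Cox6a1 and Cox7a2 and 22.2% to 24.4% of those of the 3 muscle forms. Cox4i1, the common form of subunit 4, ran from -0.63 in tumour 646 to 1.12 in tumour 641, and Cox4i2 had both arrays in 10 tumours and was not tested. Cox6b1 ran from -0.26 in tumour 655 to 1.35 in tumour 641 (0.338). Skeletal muscle markers (4 of 12 tested: Acta1, Ckm, Mylpf and Tnni2) had a median, above that of all genes, of -1.84 in tumour 660 to 6.05 in tumour 673, where the muscle forms read 0.56 (Cox6a2), 1.31 (Cox7a1) and 1.44 (Cox8b), and the part of muscle tissue in these values was not tested.

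Complex V, ATP synthase, was measured with 14 of 17 genes, and 4 passed. Atp5a1, the alpha subunit of the catalytic head, ran from 0.03 in tumour 673 over a median of 0.97 to 1.91 in tumour 641 (SE 0.27, adjusted p = 0.0154, and 0.242 with arrays centred). Its means were highest in tumours 641, 640 (1.79) and 639 (1.62), and the arrays of those 3 tumours read 1.29 or more. Atp5g2, which encodes the ring subunit c, ran from -1.24 in tumour 655 over a median of -0.15 to 1.23 in tumour 641 (SE 0.40, adjusted p = 0.0158, and 0.262 with arrays centred). Atp5pb, the stalk subunit b, ran from -0.21 in tumour 644 to 1.31 in tumour 641 (0.0175), and Atp5e, the epsilon subunit, from -0.61 in tumour 655 to 1.53 in tumour 641 (0.0331). The catalytic beta subunit Atp5b ran from -0.34 in tumour 644 to 1.20 in tumour 641 and did not pass (0.0629). Atp5g1, which encodes the same ring subunit as Atp5g2, had both arrays in 6 tumours and was not tested, nor were Atp5k and Atp5mpl.

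The 10 assembly factors, which help build complexes I and II without being part of them, had a median range of 3.73 and a median intraclass correlation of -0.04, so their arrays repeated poorly. Ndufaf3 had the smallest adjusted p (0.0641, and 0.0428 with arrays centred), with means from -3.91 in tumour 664 on 1 array to 1.97 in tumour 669. Ndufaf8 ran from -0.56 in tumour 660 to 2.89 in tumour 667 (0.111, and 2.7e-04 with dye orientation as a covariate). Small whole-number ratios made up a median of 22.6% of the values of these genes, beside 9.52% for all members and 15.4% for all genes. Cox7a2l had a range of 4.62, with its lowest mean in tumour 664 and its highest, 1.61, in tumour 669 (0.327).

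The subunits largely varied together from tumour to tumour. On centred arrays the mean pairwise Pearson correlation over the 21 tumours was 0.41 among the 72 members with a value in every tumour, beside 0.09 among the 6546 such genes of the table. It was 0.51 for pairs of subunits within a complex and 0.44 for pairs across complexes, over 602 and 1478 pairs. By complex it was highest for complexes III (0.72) and V (0.63), and lowest for complexes II (0.21) and IV (0.16). The points of these correlations share arrays, and members had less hybridisation error than most genes. The members closest to the mean of the others were Atp5h (0.93), Ndufb7 (0.92), Ndufs6 (0.91) and Cox7c (0.91). The muscle forms Cox6a2 (-0.24), Cox7a1 (-0.17) and Cox8b (-0.15) and the succinate dehydrogenase subunit Sdhb (-0.16) were below 0.

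Of 6474 other genes with a value in every tumour, the 10 closest to the mean of the members on centred arrays had correlations of 0.89 to 0.92. These were Rps13 and Rpl7a, proteins of the cytosolic ribosome, Acadvl, an enzyme of mitochondrial fatty acid oxidation, Chchd1, a protein of the mitochondrial ribosome, Eif4a1 and Eif3m, factors of translation initiation, and Rhno1, Sppl2b, Psmd12 and Rab5if. Tumour 641 was the highest for 9 of the 10 and tumour 640 for Acadvl. Acadvl, for example, ran from -0.64 in tumour 644 to 1.66 in tumour 640.

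Tumour 641 had the highest mean for 47 of the 76 members (61.8%), beside 8.4% of all genes, and with arrays centred for 27 members (35.5%), beside 5.79%. The 47 included 20 of 30 genes of complex I, all 6 of complex III, 12 of 14 of complex V and 1 of 10 assembly factors. Tumour 669 was highest for 12 members (15.8%), beside 22.4% of all genes. The lowest means fell most often in tumours 655 (21.1% of members, beside 4.65% of all genes) and 644 (17.1%, beside 3.8%). Next were tumours 647 (11.8%, beside 2.9%) and 663 (11.8%, beside 18.2%). With arrays centred tumour 644 was lowest most often (25 members, 32.9%, beside 7.01% of all genes). Tumour 655 was then lowest for 4 members (5.26%, beside 1.64%) and tumour 647 for 0 (beside 2.57%). Tumour 663 was then lowest for 2 (2.63%, beside 8%) and highest for 15 (19.7%, beside 9.28%). Of the 359 member contrasts that passed, tumour 641 was the higher side in 33.7% (beside 7.59% of those of all genes), tumour 667 in 18.1% (8.05%) and tumour 640 in 14.5% (5.52%). Tumour 655 was the lower side in 14.8%, beside 5.3% for all genes. Tumours 663 and 664 were the lower side in 18.7% and 11.7%, below the 21.2% and 15.7% for all genes. Without an array of tumour 641 the 359 contrasts fell to 191 or 181. They rose to 649 without replicate 2 of tumour 656 and to 550 without replicate 2 of tumour 660, and fell to 237 without replicate 2 of tumour 655. The number of members past the F test was 27 without replicate 2 of tumour 656 (35.5%, beside 22.3% of all genes).

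Part of a member's level in a tumour is shared with all genes of its arrays, since tumour medians over all genes ran from -0.93 in tumour 664 to 0.64 in tumour 669. Set against that median, the member median was 0.93 higher in tumour 641, 0.87 in tumour 664, 0.77 in tumour 663, 0.70 in tumour 667, 0.63 in tumour 640, 0.53 in tumour 638 and 0.52 in tumour 660. It was -0.17 in tumour 649, -0.13 in tumour 647, and -0.10 in tumours 644 and 673, the 4 tumours with a value below 0. In the remaining 10 tumours it lay between 0.01 and 0.39. Tumours 663 and 664 thus had member values near 0 on arrays whose other genes were low. The arrays of tumour 641 gave 0.92 and 0.91 and those of tumour 667 gave 0.68 and 0.72, whereas those of tumour 660 gave 1.19 and -0.03, those of tumour 656 -0.17 and 0.65, and those of tumour 663 0.33 and 1.25. Within slide run 3 (slides are numbered in 3 runs), tumour 641 stood at 0.93 and tumours 647, 649 and 673 at -0.13, -0.17 and -0.10. Tumours 643, 667, 669 and 670, also on run 3 alone, stood at 0.15, 0.70, 0.22 and 0.15. The part of slide run in these values was not tested.

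**Figure D4:**
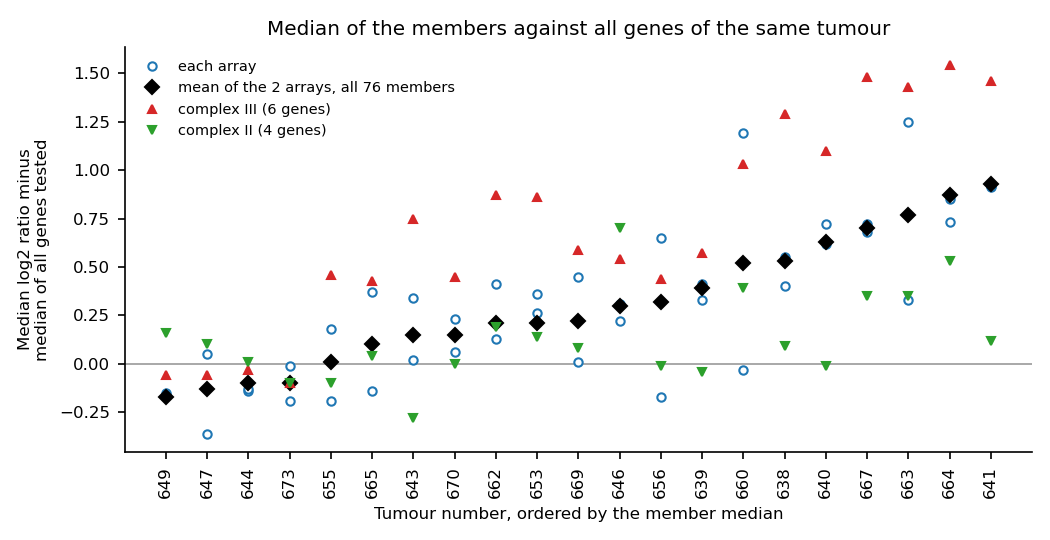
Median log2 ratio of the 76 members minus the median of all 7629 genes in each tumour (diamonds), with the same difference on each array (circles) and for complexes III and II (triangles), tumours ordered by the diamonds. Values run from -0.17 in tumour 649 to 0.93 in tumour 641, and complex III lies above complex II in most tumours.

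The complexes did not share the same level. Against the median of all genes, complex III ran from -0.10 in tumour 673 to 1.54 in tumour 664, complex V from -0.10 in the same tumour 673 to 1.18 in tumour 664, and complex I from -0.24 in tumour 649 to 0.98 in tumour 641. Complex II ran from -0.28 in tumour 643 to 0.70 in tumour 646, and complex IV from -0.45 in tumour 647 to 0.68 in tumour 656. In tumour 641 complex III stood at 1.46, complex V at 1.12 and complex II at 0.12. These are ratios to the reference pool and say nothing of how much RNA a complex has beside another.

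The 4 tumours with members below all genes were also low in epithelial and high in mesenchymal markers. The place below 0 was not steady in all of them, with arrays at 0.05 and -0.36 in tumour 647 and at -0.19 and -0.01 in tumour 673. With no filter on missing values, tumours 643, 655 and 665 lay below 0 too (-0.05, -0.06 and -0.07). The median of the epithelial markers (5 of 6 tested: Epcam, Krt8, Krt18, Cldn3 and Cldn7), minus the median of all genes, was 0.70, -0.95, -0.47 and 1.03 in tumours 644, 647, 649 and 673, and -0.12 in tumour 646. In the other 16 tumours it lay between 1.32 and 3.71. The median of the mesenchymal markers (6 of 6 tested) was 1.56, 1.11, 0.83 and 0.86 in the same 4 tumours and 2.32 in tumour 646, and between -3.55 and -1.09 elsewhere. Tumour 646 combined these marker levels with a member value of 0.30. Macrophage markers (5 of 8 tested) ran from -2.99 in tumour 663 to 1.61 in tumour 646, with 1.10, 1.20, 1.58 and 0.75 in the 4 tumours. Skeletal muscle markers stood at 4.10, 2.51, 2.81 and 6.05 in them, and between -1.84 and 3.68 in the others. Hba-a1, a globin and the only blood marker tested (1 of 3), stood at 5.95, 4.76, 4.77 and 8.69, and between 1.04 and 5.07 in the others. The part of cell type in the member values was not tested. Adipocyte (2 of 8), brown fat (2 of 4) and endothelial markers (1 of 4) were tested too, with medians of -2.98 to 2.92, -0.45 to 2.98 and -0.57 to 1.59. As ratios, none of these values shows a marker to be absent.

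Where a member lies in the genome was compared with its pattern, a comparison made after the values had been seen. Chromosomes were taken from RefSeq (GRCm38.p6), which gives one for 88 of the 89 genes. For each chromosome the median of its tested genes outside the members was taken in each tumour, minus the median of all genes. The widest of 20 ranges between tumours was that of chromosome 15 (298 genes, 0.75), followed by chromosomes 18 (0.61), 12 (0.57), 6 (0.55) and 2 (0.46), and the narrowest was that of chromosome 7 (0.13). Chromosome 15 stood at -0.38, -0.42, -0.36, -0.30, -0.35, -0.33 and -0.46 in tumours 653, 655, 660, 662, 663, 664 and 665, and at 0.28 in tumour 667. It was -0.07 in tumour 656 and -0.21 in tumours 670 and 673.

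The 4 members on chromosome 15 are Ndufb9, Ndufa6, Cox6c and Atp5g2, the first being the strongest call of the set. Their median, minus the median of all members, was -0.73, -0.73, -0.76, -0.63, -0.59, -0.69 and -0.73 in those 7 tumours, between -0.58 and 0.10 in the others, and 0.25 in tumour 667. Atp5g2 and Ndufa6, whose promoters are printed above, stood at -1.06 and -0.75 in tumour 653 and at 0.28 and 0.23 in tumour 667. Relative to all members, the median of the 4 genes lay below 0 on both arrays of each of these 7 tumours. Over the 4 genes the arrays gave -0.60 and -0.90 in tumour 660 and -0.77 and -0.68 in tumour 664. They gave -0.78 and -0.78 in tumour 665, but -0.93 and -0.33 in tumour 663. Outside the 7, the arrays of tumour 670 gave -0.76 and -0.32. Relative to all genes instead, as the chromosome values are, the 4 members stood at 0.00 to 0.38 in tumour 663 and at -0.07 to 0.39 in tumour 664. The median of all members was itself 0.77 and 0.87 above that of all genes there. In tumours 653, 655, 660, 662 and 665 all 4 stayed below 0 relative to all genes. The 7 tumours and tumour 656 are the only ones with an array in slide run 2. Tumours 660, 664 and 665 have their other array in run 3. With slide run as a block the F test gave adjusted p values of 0.0808 (Ndufa6), 0.132 (Cox6c), 0.377 (Atp5g2) and 0.00549 (Ndufb9). The part of slide run in the low values was not tested. Over the 21 tumours the correlation of a member, relative to all members, with the other genes of its chromosome was 0.94 for Ndufa6, 0.89 for Atp5g2, 0.85 for Cox6c and 0.80 for Ndufb9, as a description, since both sides come from the same arrays. Relative to all members, Ndufb9 went beyond the chromosome in several tumours. Among them were 667 (1.15), 638 (0.73), 640 (0.70), 669 (0.70), 641 (0.60), 643 (0.58), 664 (-0.94) and 670 (-1.73).

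**Figure D5:**
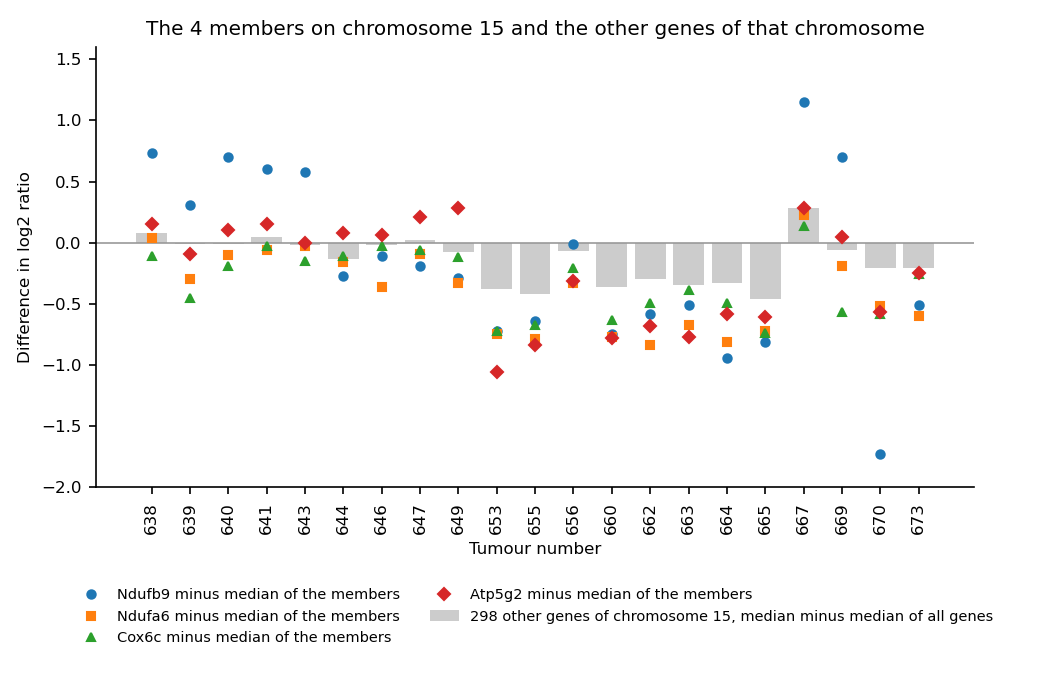
Difference in log2 ratio by tumour for the 4 members on chromosome 15, each minus the median of all members (symbols), and for the median of 298 other genes of that chromosome minus the median of all genes (bars). On these baselines bars and symbols are low together in tumours 653, 655, 660, 662, 663, 664 and 665 and above 0 in tumour 667. Minus the median of all genes, as the bars are, the 4 members stood at 0.00 to 0.38 in tumour 663 and at -0.07 to 0.39 in tumour 664.

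Relative to all members, some members on other chromosomes also varied with their chromosome, those listed first with correlations of 0.51 to 0.82. Uqcr10 lies on chromosome 11, whose 626 other genes stood at 0.22 to 0.38 in tumours 638, 639, 640, 641, 643, 667 and 669 and at -0.01 to 0.14 in the others. Uqcr10 itself, relative to all members, stood at 0.65 to 1.28 in those 7 tumours (correlation 0.82). On chromosome 2, whose other genes stood at 0.30, 0.33 and 0.40 in tumours 639, 640 and 641, Ndufs3 stood at 1.08, 0.58 and 0.69 (correlation 0.75) and Atp5c1 at 0.37, 0.60 and 0.56 (0.51). On chromosome 6 the other genes stood at -0.17 in tumour 640 to 0.38 in tumour 660, and Ndufa5, Ndufa4 and Ndufb2 had correlations of 0.67, 0.62 and 0.52. On chromosome 19, whose 268 other genes ran from -0.32 in tumour 656 to 0.12 in tumour 663, Ndufb8 and Ndufv1 had correlations of 0.80 and 0.70. Not every member followed: Atp5a1 on chromosome 18 had a correlation of 0.15, and Uqcrfs1 and Cox7c on chromosome 13 had -0.35 and -0.55. The own chromosome gave the highest correlation of the 20 for 13 of 75 members (17.3%) and, taken relative to all genes instead, for 11 (14.7%), beside 10.3% of 7523 genes. The median correlation of a member with its own chromosome was 0.28 relative to all members but -0.01 relative to all genes, beside 0.10 for all genes. These values have no test, and copy number was not analysed here.

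Neighbouring mitochondrial lists were counted in the same test. Of the respiratory chain genes outside the rule, such as those of cytochrome c and further assembly factors, 5 of 19 (26.3%) passed the F test as deposited, beside the 18.9% of all genes. Of the tricarboxylic acid cycle and pyruvate dehydrogenase genes 3 of 16 (18.8%) passed, of the carriers and channels 2 of 11 (18.2%), of the import genes 4 of 18 (22.2%), of the mitochondrial ribosome 13 of 66 (19.7%), and of the regulators of mitochondrial biogenesis 1 of 9 (11.1%). The smallest adjusted p values were those of Coq7, an enzyme of ubiquinone synthesis (4.6e-04, from -1.22 in tumour 647 to 4.63 in tumour 667), Idh3b (0.0201), the ADP/ATP carrier Slc25a4 (0.0107), the chaperonin Hspd1 (0.00392), Mrpl12 (1.0e-04, from -0.32 in tumour 644 to 2.23 in tumour 641) and the transcription factor Yy1 (0.0368). With arrays centred the counts were 3, 1, 1, 1, 5 and 1, beside 19.3% of all genes. With dye orientation as a covariate they were 12, 5, 3, 13, 44 and 2. These were 63.2%, 31.2%, 27.3%, 72.2%, 66.7% and 22.2% of the lists, beside 45.1% of all genes. Of the glycolysis genes 3 of 9 passed (33.3%, beside 18.9% of all genes). With arrays centred or with the dye covariate 6 of the 9 passed (66.7%), beside 19.3% and 45.1% of all genes. Ldha, the lactate dehydrogenase subunit, had the smallest adjusted p among the glycolysis genes (3.6e-04, from -2.31 in tumour 656 to 1.62 in tumour 653). The median of the glycolysis genes, minus that of all genes, was -1.04 in tumour 667 and -0.57 in tumour 641, where the members stood at 0.70 and 0.93. It was 0.60 in tumour 663 and 0.45 in tumour 664, where the members stood at 0.77 and 0.87.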

How the data were processed

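RNA of 21 tumours was hybridised in dye-swapped pairs to oligonucleotide arrays, per the labels' protocols. The deposited values are log2 ratios of the dyes, a scale read from the values; for image processing, background correction and normalization, the sources used here give nothing. The repeated top value 16.61 (2.135% of values) was set missing. Arrays were turned by the first eigenvector of the correlations between the tumours' array differences. Probes were named through the platform annotation and the probes of a gene averaged. Differences were tested with limma 3.58.1 (R 4.3.3), the 21 tumours as levels of a factor, moderated F tests and contrasts, and Benjamini-Hochberg adjustment over all genes (for contrasts, within each pair). The F test was run on simulated arrays with independent error for each gene and array. These held no dye difference, array shift or slide run, so they do not show how the test handles those. Slide run comes from running numbers in the titles, which the labels do not call a batch. Any member may be named; those described tumour by tumour are the 2 smallest p and the largest spread per complex and the muscle or common forms; further members were named after their values were seen. Members and lists were chosen with earlier results of these data known. Alternatives covered scaling, missing values, dye, slide run, filters and left-out arrays.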

Additional observations from a re-analysis of the deposited data

How the results depend on the processing

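The 17 members that differed between tumours became 6 with arrays centred, 1 after quantile normalization between arrays (Ndufb9; 1.32%, beside 14.6% of all genes), 51 with dye orientation as a covariate, 4 with slide run as a block (5.26%, beside 7.68%) and 3 with no filter on missing values (3.37%, beside 4.05%). With values on all arrays, or small whole-number ratios missing, 25 passed (43.1% and 39.7%, beside 39.3% and 41.1%). Within slide runs 1, 2 and 3 alone limma called 0, 0 and 0 members, and 0, 0 and 105 genes in all. An unadjusted p below 0.05 was seen for 6 of 79, 1 of 74 and 14 of 80 members. Among all genes it was seen for 920 of 8698, 375 of 7811 and 1189 of 8708. Leaving out each array gave 12 to 27. The 359 pairwise contrasts became 102, 50, 1555 and 148 under the first 4 settings and 65 with no filter. They were 684 with values on all arrays, 685 with small whole-number ratios missing, and 181 to 649 with an array left out. For all genes contrasts were counted only before these changes (2.75%), so these counts do not show whether members moved differently from other genes. The 31 calls in the neighbouring lists became 18, 7, 85, 9 and, with no filter, 7, and 22 to 44 with an array left out. In the same order, the F test called 19.3%, 14.6%, 45.1%, 7.68% and 4.05% of all genes, and 15.2% to 31.9% with an array left out. Tumours 646, 660, 664 and 665 alone have an array in each of 2 slide runs, so that run and tumour can hardly be told apart. Without the 5 tumours with weakly opposed arrays, a setting chosen after seeing the data, 23 of 68 members passed (33.8%, beside 30.6% of all genes). Under the 4 alternatives run for them the median range lay between 1.79 and 1.96 and the median intraclass correlation between 0.11 (quantile) and 0.41. Under the alternatives run for the member medians against all genes, 14 to 17 tumours lay above 0, the fewest with no filter on missing values. Single tumours moved, such as 664 from 0.87 to 0.59 with values on all arrays and 667 from 0.70 to 0.18 with no filter. The lowest tumour was then 644 (-0.29), and 664 was the highest with subunits only (0.99). No paired analysis was possible by replicate number, because the replicate numbers only name the arrays of a tumour in accession order. Arrays were matched across tumours by dye orientation alone, in the fit with dye orientation as a covariate (51 members). The number of arrays, 2 for each tumour, limits the precision.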
